A study of Danio rerio with 6 samples.

Results

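Gene models on alternate contigs of the zebrafish genome were examined in RNA-seq of sirt6 mutant and wild-type larvae. They were chosen as all models whose contig name begins with CHR_ALT in the deposited gene table, which gave 3772 of 38157 models on 813 contigs of 25 chromosomes. Larvae of a zebrafish sirt6 mutant line made with CRISPR/Cas9 and wild-type larvae were separated by genotyping at 3 days post fertilisation, and poly-A RNA came from tails with their haematopoietic tissue. Each genotype had 3 libraries. The sources used here do not state strain, zygosity, lesion position or larvae per library, nor that replicates came from separate pools, so p-values measure the spread between these libraries, which may be technical. Values are deposited FPKM, that is, fragments scaled to the length of the model and to a size value of each library, on the GRCz11 build.

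An alternate contig is a second version of a chromosome region that differs between haplotypes, kept in the assembly beside the chromosome. A gene in such a region has a model on the chromosome, called primary here, and a model on the contig, called ALT here. A read that matches both versions equally well can be dropped, split or counted in either, and the sources used here do not state how such reads were treated. The level of 1 copy is thus a count of the reads assigned to that version, and the gene's level is better read from both.

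All 3772 ALT models carried serial identifiers and no symbol, so none could be joined to a chromosome copy by name. The deposited description gave a Swiss-Prot protein for 3297 of them and a Pfam domain for 2043, and 427 had neither. Copies were instead matched by the same Swiss-Prot entry, the chromosome in the contig's name, the same strand and starts within 100000 bases. This gave 2084 pairs of exactly 1 ALT and 1 primary model on 674 contigs. Their starts lay a median of 5113 bases apart, 1715 pairs overlapped in coordinates, and the ALT model was a median of 0.996 times the primary model's length. The other 1688 ALT models had no Swiss-Prot entry in 475 cases, an entry but no match in 602 and a match that was not unique in 611. Pairs are named here by the primary model's symbol.

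Reads in genes numbered 12788974 to 14314865 in the mutant libraries and 12438359 to 14655293 in the wild-type libraries. The targeted gene sirt6 has no ALT model. It had 3.52, 3.39 and 3.04 FPKM in mutants 1 to 3, against 5.85, 3.25 and 2.44 FPKM in wild-type libraries 1 to 3. The genotypes overlapped, with a log2 fold change of -0.11 and an adjusted p of 0.973 in limma. The 6 hox13 genes of the caudal body were present at 0.713 to 13.5 FPKM. Genes of the head and eye were present as well in these libraries labelled as tail, with rho, the rod opsin, at 285 to 910 FPKM. The summed level of the primary models of 7 head and eye genes was 1228 to 1505 FPKM in mutants and 612 to 1097 FPKM in wild type, without overlap. The largest part was rho, with a mean of 849 FPKM in mutants and 391 FPKM in wild type. Means in mutants and wild type were 375 and 288 FPKM for crybb1 and 49.5 and 47.1 FPKM for neurod1. Those of gnat1, otx2b and zic1 were also higher in mutants. The primary model of cryaa was lower, with 1.01 FPKM in mutants against 1.21 FPKM in wild type. Its ALT model held more and went the other way, with 10.65, 12.62 and 10.03 FPKM in mutants and 9.17, 6.51 and 4.62 FPKM in wild type. The summed primary models of 3 skin genes did not overlap either, with 2906 to 3619 FPKM in mutants and 2710 to 2770 FPKM in wild type. Their largest part was krt4, with a mean of 3170 FPKM in mutants and 2743 FPKM in wild type. These skin sums leave out the ALT models, so the lack of overlap holds for the primary models alone. The ALT model of krt4 had 1342, 1573 and 1289 FPKM in mutants and 1353, 1471 and 1443 FPKM in wild type. The sums of the tail, blood, muscle and digestive genes overlapped. The part of the differences in these sums in the results below was not tested. In ALT shares, defined below, mutant libraries 1 and 3 were the closest couple, with a mean absolute difference of 4.84 percentage points over 1575 pairs. Wild-type libraries 2 and 3 came next with 5.19 points, while mutant library 1 and wild-type library 1 differed by 5.74 points, less than mutant library 1 and mutant library 2 with 5.97 points.

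ALT models were widely read. A value above 0 in at least 1 library was found for 3729 of the 3772 ALT models (98.9%), against 27446 of 33648 primary models (81.6%). The sources used here do not state how the ALT models were made, and models built from reads would be detected by construction. A mean of at least 10 FPKM was reached by 288 ALT models, against 5354 primary models, and a mean of at least 100 FPKM by 19, against 478. ALT models held 5.37, 5.17 and 5.26% of all reads in genes in mutants and 5.22, 5.48 and 5.54% in wild type. The genotypes overlapped, with an exact two-sided permutation p of 0.3, where 0.1 is the smallest that 3 against 3 libraries allow, and their means differed by -0.146 points, mutant minus wild type, or by -0.016 points without the 5 models of highest level. By chromosome the part of reads that fell on ALT models ran from 0.273% on chromosome 19 to 14.97% on chromosome 23.

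The ALT models of highest level came from abundant genes of muscle, skin, blood plasma and the ribosome. At the top stood the ALT model of pvalb2, a calcium buffer of fast muscle, with 1500, 702 and 667 FPKM in mutants and 3157, 1242 and 1737 FPKM in wild type. Mutant library 1 lay above wild-type library 2, so the genotypes overlapped. The next were krt4, a skin keratin, apoa1a, the main protein of high-density lipoprotein, the ribosomal protein genes rpl10 and rpl32, and mylpfa, the regulatory light chain of fast muscle myosin. They were followed by actb1 (cytoplasmic actin), hspa8 (a constitutive chaperone), a keratin 8 model matched to krt5, though not uniquely, and rpl5b. For the pairs of pvalb2 and apoa1a the primary model held little: at most 4.42 FPKM for pvalb2 and 7.76 FPKM for apoa1a in any library. The pvalb2 models do not overlap and start 3823 bases apart, so a neighbouring gene cannot be told apart from a second copy.

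For each of the 2015 pairs with a mean summed level of at least 0.5 FPKM, the ALT share was taken as ALT FPKM in percent of the summed FPKM of both copies. The ALT copy was higher in 1159 pairs (57.5%) and the primary copy in 569 (28.2%), by limma on the log2 ratio of (FPKM + 0.5) at an adjusted p under 0.05, with 287 passing in neither direction. The median share was 65.5%, with quartiles of 39.9 and 92.7%. Both ends were filled: 461 pairs had a share of 95% or more and 56 a share under 5%. ALT models built from reads would raise the ALT counts and shares by construction, and this was not tested. The share moved with the length of the models. The median was 39.1% for the 285 pairs whose ALT model was under 0.5 times the primary length and 73.7% for the 213 pairs in which it was over 2 times that length. In the 1517 pairs between these limits it was 67.0%. The median share per library was 64.0, 66.4 and 64.6% in mutants and 64.7, 65.9 and 66.6% in wild type.

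**Figure D1:**
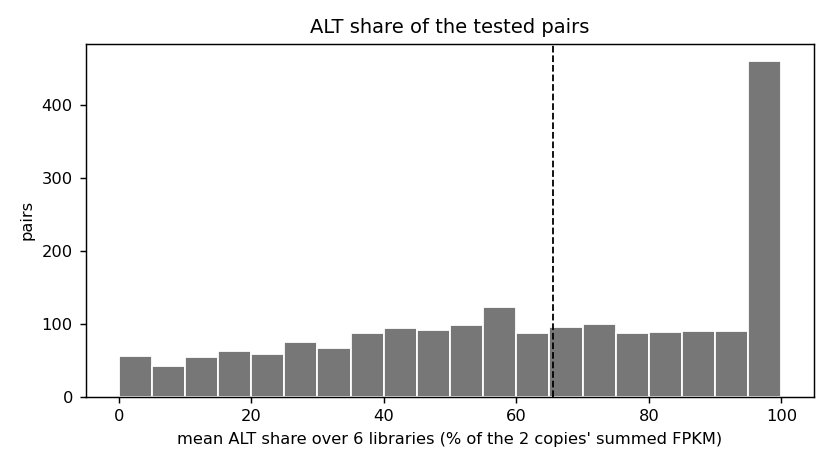
Number of tested pairs (y axis) by mean ALT share over the 6 libraries (x axis, percent of the 2 copies' summed FPKM, bins of 5 points), with the median of 65.5% as a dashed line. The last bin, from 95%, holds 461 of 2015 pairs.

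In 250 pairs (12.4% of those tested) the primary model had 0 FPKM in all 6 libraries while the ALT model was read, and 206 of these pairs overlapped in coordinates. The reverse was found in 3 pairs. ALT models built from reads would be read by construction, so this imbalance may follow from how the models were made, which was not tested. Among the 250 was cd63, a tetraspanin of endosomes and lysosomes, whose ALT model on contig CHR_ALT_CTG23_1_35 lies at 32066168 to 32085940 and its primary model at 32066168 to 32085939. The ALT model had 46.4, 43.2 and 29.9 FPKM in mutants and 42.2, 104.1 and 66.5 FPKM in wild type, with 573 to 1862 reads a library. The primary model had 0 reads, which in the shallowest library allows a share of up to 0.524% of the pair's reads, for counting error only. The ALT models of hnrnpc, which encodes a pre-mRNA binding protein, with 317 to 520 reads, and of faub, the ubiquitin-like fusion of ribosomal protein S30, with 240 to 348 reads, also had primary models at 0. The faub models do not overlap and start 31267 bases apart. Of the 448 pairs with a summed level of at least 10 FPKM, 78 had an ALT share of at least 90% and 42 had one under 10%.

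Several genes commonly used as tissue markers were read almost only through the ALT models matched to them. The primary model of mylpfa had at most 0.14 FPKM in any library, while an ALT model on contig CHR_ALT_CTG3_2_3 that starts 85710 bases from it had 699, 833 and 681 FPKM in mutants and 702, 1014 and 1053 FPKM in wild type. This ALT model spans 32727338 to 32817232, which includes the start of the primary model, although its length is 1545 bases. An ALT match with a closer start, 5994 bases away on CHR_ALT_CTG3_1_20, had 3.25 to 7.24 FPKM in mutants and 4.26 to 5.52 FPKM in wild type. The primary model of krt5, a skin keratin, had at most 1.48 FPKM, while the ALT model that starts 37 bases from it on contig CHR_ALT_CTG23_1_2 had 262, 286 and 247 FPKM in mutants and 295, 267 and 247 FPKM in wild type. Both genes matched more than 1 ALT model and are therefore outside the 1:1 pairs. The ALT model given for krt5 also had no unique primary match, so its link to krt5 is uncertain. Blood and skin gave further cases. For alas2, the haem synthesis enzyme of red cells, the primary model was at 0 in all 6 libraries and the ALT model at 2.37, 4.08 and 2.37 FPKM in mutants and 4.02, 2.99 and 2.85 FPKM in wild type. The primary model of cldni, a claudin, had at most 0.18 FPKM. The ALT model matched to it had 19.4 to 33.6 FPKM in mutants and 27.9 to 44.5 FPKM in wild type. These models do not overlap and start 88682 bases apart, so a neighbouring claudin gene cannot be told apart from a second copy.

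**Figure D2:**
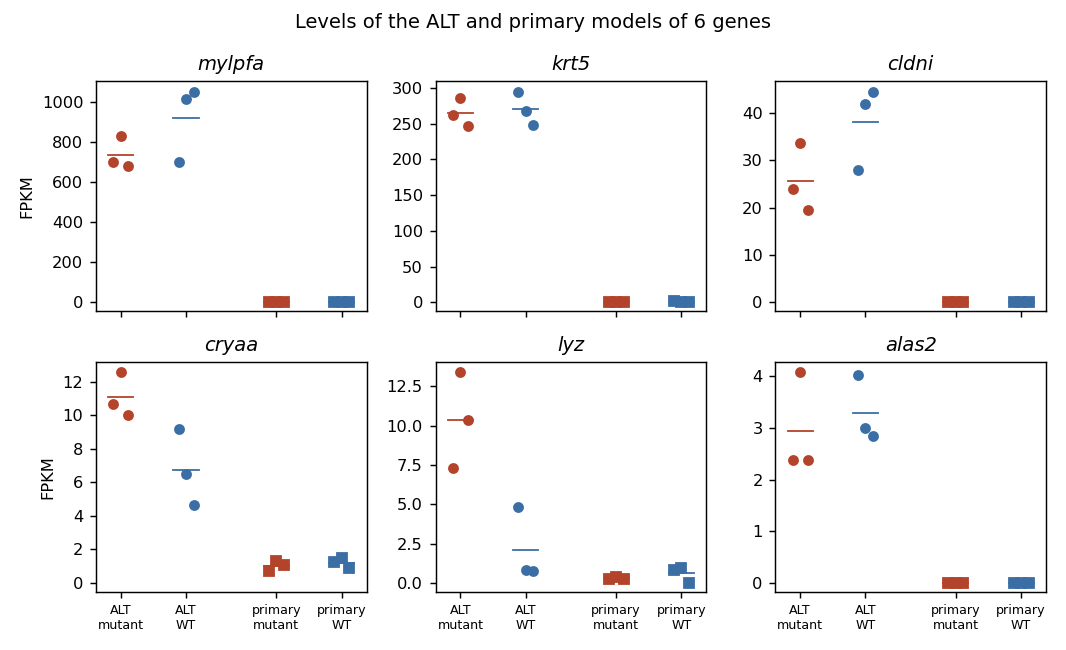
FPKM (y axis, from 0) of the ALT and primary models of 6 marker genes in the 3 mutant and 3 wild-type (WT) libraries, with points as libraries and bars as means. The ALT model lies above the primary model in every library of all 6 genes except lyz in wild-type library 2. Not shown are krt4 and ela2l, markers with an ALT match whose primary model was higher in every library. For krt4 the primary model had 2709 to 3618 FPKM and the ALT model 1289 to 1573 FPKM. For ela2l, a digestive enzyme marker, the primary model had 20.3 to 39.1 FPKM and the ALT match on its strand 2.98 to 5.02 FPKM.

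Of the markers shown in the figure, the remaining cryaa and lyz had a higher mean ALT share in mutants, without passing the test. For the marker krt4, given below, the mean share was lower in mutants. The lens gene cryaa had an ALT share of 93.9, 90.7 and 90.5% in mutants and 87.9, 81.5 and 84.0% in wild type, without overlap, at an adjusted p of 0.243. For lyz, the lysozyme of neutrophils and macrophages, the ALT model had 7.27, 13.4 and 10.3 FPKM in mutants and 4.79, 0.79 and 0.73 FPKM in wild type, and the primary model at most 0.96 FPKM (adjusted p of 0.132 for the ratio). The summed lyz locus differed by 2.07 on the log2 scale, mutant over wild type, with an unadjusted p of 0.00444 and an adjusted p of 0.781. Both lyz copies together had only 6 to 120 reads a library, and the primary model 0 to 8.

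At the other end, the primary model carried the reads of hsp90b1, a chaperone of the endoplasmic reticulum. It had 135, 156 and 131 FPKM in mutants and 138, 129.6 and 131 FPKM in wild type, while the ALT model had at most 0.816 FPKM, although the copies start 1 base apart. The share was 0.345 ± 0.242% in mutants and 0.308 ± 0.076% in wild type (SD, n = 3 each). The ALT models of rnasel3, trpv6 and ciapin1 were at 0 in all 6 libraries, with primary models read in each. Those of h2ax1 and sh3bgr held under 3% in every library. The models of rnasel3 and of trpv6 do not overlap and start 8762 and 9759 bases apart. For these a neighbouring gene cannot be told apart from a second copy.

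Over all 2015 tested pairs the ALT copy was higher in 57.5% and the primary copy in 28.2%, and no family was tested against these shares. By gene family, named from the primary symbol, all 4 pairs of TRIM genes had a higher ALT copy, as had all 5 pairs in the list of immune receptors and ligands, which spans cxcl14, cxcl12b and cxcr3.3 and, by its symbol, cd63. The ALT copy was higher in 8 and the primary copy in 1 of 11 pairs of cytochrome P450 and conjugation enzymes, in 24 and 14 of 44 solute carriers, and in 13 and 10 of 26 ribosomal protein pairs. It was higher in 5 and the primary in 3 of 9 proteases and inhibitors, in 5 and 4 of 9 transcription factors, in 3 and 1 of 4 cadherins and of 4 collagens, and in 4 and 6 of 15 zinc finger genes. Both crystallin pairs had a higher ALT copy. Both keratin pairs, both histone pairs, the only globin pair (hbbe2) and the pair of rnasel3 had a higher primary copy. The gene rnasel3, described as a ribonuclease-like protein, gave the only pair caught by the spelling rule for small RNAs. Genes of antigen processing (39 primary models), NLR genes (13) and chemosensory receptors (299) gave 0 pairs. A pair needs exactly 1 ALT and 1 primary match, so 0 pairs does not mean that these families lack ALT models. The median share was 57.2% in ribosomal proteins and 64.0% in solute carriers, against 65.5% over all tested pairs.

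Within the ribosomal proteins the range was from 0.929 to 100%. The ALT copy of rpl10 held 914, 1150 and 817 FPKM in mutants and 1075, 959 and 892 FPKM in wild type, with primary values of 4.0 to 12.4 FPKM. For rpl5b both copies were abundant, with shares of 37.6, 40.1 and 37.6% in mutants and 42.0, 48.1 and 49.99% in wild type. These shares did not overlap, at an adjusted p of 0.252. In krt4, with 45473 to 54615 ALT reads a library, the share was 30.7 ± 0.352% in mutants and 34.1 ± 1.02% in wild type (SD, n = 3 each), again without overlap and with an adjusted p of 0.312. The adenine nucleotide carrier gene slc25a4 had 13.9 ± 0.478% in mutants and 14.2 ± 1.37% in wild type, and the 95% interval of its log2 ratio difference was -0.30 to 0.25.

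Shares varied between libraries by a median range of 12.5 points over the 1575 pairs with at least 2 FPKM and 20 reads on average. The range was under 10 points in 622 of them and 50 points or more in 16. Of the 8 pairs with the widest range, nav2a had 368 to 662 reads a library for both copies, and the others at most 244 in any library. Only 0 to 23 reads a library fell on the ALT model of nav2a. That model is 405 bases long, against 11638 bases for the primary model, so its share of FPKM rests on few reads. For nav2a, a neuron navigator gene, the share was 58.0, 0 and 17.9% in mutants and 37.1, 15.4 and 9.72% in wild type, so the genotypes overlapped. For wnt3, a secreted Wnt ligand, it ran over 46.8, 65.3 and 69.7% in mutants and 49.7, 78.6 and 0% in wild type, on 14 to 34 reads a library for both copies. For gria4b, an AMPA-type glutamate receptor subunit, with 47 to 244 reads, it was 15.2, 5.5 and 63.5% in mutants and 63.7, 54.1 and 2.1% in wild type, so libraries of 1 genotype differed as much as the genotypes. For kcnab1b, a potassium channel subunit, it was 68.5, 57.1 and 45.8% in mutants and 38.2, 14.0 and 11.2% in wild type, without overlap, at an adjusted p of 0.243.

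Levels of the ALT models were then compared between genotypes. All 23855 genes whose mean reached 0.5 FPKM were fitted together. None reached an adjusted p of 0.05 in limma (0 genes, 0%), limma voom on recovered reads also called 0, and 1368 genes (5.73%) lay under 0.05 before adjustment. Of the 3203 ALT models tested, 0 passed and 301 (9.40%) had an unadjusted p under 0.05, 141 of them higher and 160 lower in mutants. The genotypes did not overlap in 447 ALT models (14.0%), against 10.6% of all genes tested. In bulk RNA, fewer cells of a type and less RNA per cell cannot be told apart.

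The ALT models of smallest p in either direction did not pass. Higher in mutants, with an adjusted p of 0.242, was the ALT model of actb1, with 490, 566 and 471 FPKM in mutants and 254, 263 and 253 FPKM in wild type. The ALT model of crx, a homeobox factor of photoreceptors, had 8.19, 7.54 and 8.29 FPKM in mutants and 4.83, 3.59 and 3.02 FPKM in wild type (adjusted p of 0.406). The primary model of crx held more and its mean went the other way, with 21.1 ± 2.74 FPKM in mutants and 25.9 ± 5.63 FPKM in wild type (SD, n = 3 each). The sum of head and eye genes given above, of which rho was the largest part, was higher in mutants. A link of the ALT model of crx to that sum was not tested. The other 4 were matched to exoc3, zgc:163098 (a clone name, described as a U2 snRNP-associated protein), wdr44 and mthfd1a, with adjusted p of 0.323 to 0.433. Lower in mutants were stra6, the receptor of retinol-binding protein, with 4.02, 3.85 and 4.24 FPKM in mutants against 8.30, 8.43 and 7.56 FPKM in wild type (adjusted p of 0.221), and fgg, the fibrinogen gamma chain (adjusted p of 0.412). The other 4 had no primary partner. The highest of them, an undescribed model on contig CHR_ALT_CTG13_2_2 at 8842948 to 8843659, had 21.4, 24.6 and 12.9 FPKM in mutants and 84.3, 65.4 and 68.5 FPKM in wild type, with an adjusted p of 0.183.

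The balance between the copies was compared next. It is a ratio within a library, so a factor common to all genes of a library cancels, apart from the added 0.5. Of 2015 pairs, 3 passed (0.149%): actb1 and psmb5, whose ALT share rose in mutants, and rnf41, whose ALT share fell in mutants. At an unadjusted p under 0.05 there were 244 pairs (12.1%), 113 with the ALT side higher and 131 with it lower in mutants. Shares of the genotypes did not overlap in 334 pairs (16.6%). All 3 calls were lost when any 1 mutant library was left out (0 pairs passing), 1 pair passed without wild-type library 2 or 3, and 12 passed without wild-type library 1. Of the 1575 better-read pairs, 187 differed by 10 points or more between the genotype means and 22 by 20 points or more.

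For actb1, the ALT model lies on contig CHR_ALT_CTG1_1_1 at 8606120 to 8609699 on the minus strand, and the primary model on chromosome 1 at 8649099 to 8653385. The ALT model had 490, 566 and 471 FPKM in mutants and 254, 263 and 253 FPKM in wild type. The primary model had 416, 484 and 400 FPKM in mutants and 516, 492 and 473 FPKM in wild type. The ALT share was therefore 54.1, 53.9 and 54.1% in mutants and 33.0, 34.8 and 34.8% in wild type, far apart beside a spread of 0.0983 and 1.07 points (SD, n = 3 each). The log2 ratio differed by 1.17 (SE 0.09, adjusted p of 0.00306 in limma), with an adjusted p of 0.054, 0.0613 and 0.0767 when mutant library 1, 2 or 3 was left out. Each library held 5515 to 13165 ALT reads and 15985 to 20873 primary reads. Summed over both copies, the locus had 942 ± 94.7 FPKM in mutants and 750 ± 22.5 FPKM in wild type, and its log2 fold change of 0.32 had an unadjusted p of 0.102. Actins are a family of close sequence, so reads shared with other actin genes make these levels uncertain, and the copies start 42979 bases apart, close to the offset of their contig neighbours fbxl18 (42998 bases) and fscn1b (43005 bases).

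For psmb5, a catalytic subunit of the proteasome, the ALT model lies on contig CHR_ALT_CTG2_1_3 at 38369099 to 38388516 and the primary model on chromosome 2 at 38373272 to 38392575. The ALT share was 69.8, 68.5 and 72.5% in mutants and 52.4, 42.1 and 44.8% in wild type. The ALT model had 47.2, 57.8 and 46.2 FPKM in mutants and 48.0, 21.2 and 24.6 FPKM in wild type, so that wild-type library 1 reached the mutant level. The primary model had 20.5, 26.5 and 17.6 FPKM in mutants and 43.7, 29.2 and 30.3 FPKM in wild type, without overlap. The ratio differed by 1.43 on the log2 scale (SE 0.18, adjusted p of 0.0324), and it passed in only 1 of the 6 fits that left out a library, that without wild-type library 1, while the summed locus differed by 0.17 with an unadjusted p of 0.487. The contig lies on the chromosome of sirt6 and ends 14676523 bases before it. Chromosome 2 has 13 contigs, and the last ALT model of any of them ends 2761260 bases before sirt6. Of the 49 tested pairs of chromosome 2, 11 (22.4%) had an unadjusted p under 0.05 for the ratio. Over the chromosomes this ran from 4 of 103 pairs (3.88%) on chromosome 7 to 5 of 20 pairs on chromosome 19, with 37 of 176 (21.0%) on chromosome 5.

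For rnf41, an E3 ubiquitin ligase gene, the ALT model on contig CHR_ALT_CTG23_1_35 spans 32321164 to 32349749 and the primary model on chromosome 23 spans 32308814 to 32334208. The ALT share was 52.1, 47.8 and 46.9% in mutants and 77.9, 76.7 and 73.3% in wild type. The ALT model had 4.3, 4.3 and 3.9 FPKM in mutants and 4.9, 8.0 and 8.5 FPKM in wild type, and the primary model 4.0, 4.7 and 4.4 FPKM in mutants and 1.4, 2.4 and 3.1 FPKM in wild type. The copies thus differed in opposite directions, each without overlap. The log2 ratio fell by 1.51 (SE 0.18, adjusted p of 0.0318), again passing in 1 of 6 such fits, and the summed locus had 8.58 ± 0.418 FPKM in mutants and 9.42 ± 2.78 FPKM in wild type (SD, n = 3 each).

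**Figure D3:**
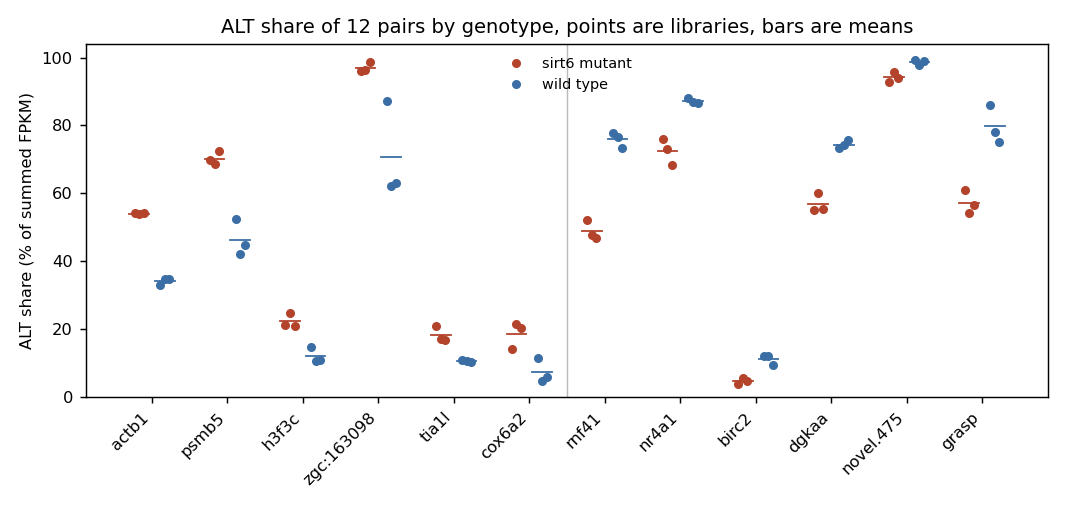
ALT share (y axis, percent of summed FPKM; points are libraries, bars means of 3, mutants left of wild type) of 6 pairs with a higher ratio in mutants, left of the line, and 6 with a lower one, right of it. They were chosen as those of smallest p among pairs whose genotypes do not overlap, so the lack of overlap is no finding, and of the 12 only actb1, psmb5 and rnf41 passed an adjusted p of 0.05.

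The remaining 9 of these 12 pairs did not pass. Among those with a higher ALT share in mutants, h3f3c, a histone H3.3 gene, had 22.3 ± 2.07% in mutants and 12.1 ± 2.22% in wild type (SD, n = 3 each, adjusted p of 0.0893). The RNA-binding protein gene tia1l had 18.2 ± 2.43% in mutants and 10.6 ± 0.353% in wild type (adjusted p of 0.124). The pair of zgc:163098 had 97.0 ± 1.55% in mutants and 70.8 ± 14.2% in wild type (adjusted p of 0.0981) on 2 to 45 primary reads, and cox6a2, a subunit of cytochrome c oxidase, rested on 2 to 10 ALT reads. Among those with a lower ALT share in mutants, birc2, an inhibitor of apoptosis, had 4.68 ± 0.93% in mutants and 11.1 ± 1.57% in wild type (adjusted p of 0.0893). A pair on chromosome 17 whose primary model, at 22070019 to 22071150, is itself without a symbol had 94.2 ± 1.44% in mutants and 98.7 ± 0.698% in wild type on 2 to 13 primary reads. The last 3 were neighbours of rnf41.

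Pairs of a contig were next summed. Of 666 contigs, 6 passed for the ratio of summed ALT to summed primary FPKM (0.901%), 5 with the ALT side higher and 1 with it lower in mutants, and 102 (15.3%) had an unadjusted p under 0.05. The count was 1 without mutant library 1 or 2, 2 without mutant library 3, 1 without wild-type library 2 or 3, and 17 without wild-type library 1. The 6 contigs, described here and below, are those of smallest p for sums over these same pairs. A shared direction of their pairs therefore also follows from that choice. Over all 2015 tested pairs, 1000 had a higher ratio in mutants. The contig that was lower, CHR_ALT_CTG23_1_35, has 6 pairs, and all 6 ratios were lower in mutants, 5 of them at an unadjusted p under 0.05. Its summed share was 83.1, 81.2 and 75.9% in mutants and 90.3, 94.1 and 91.5% in wild type (adjusted p of 0.0336). Beside rnf41, the pair of nr4a1, an immediate-early nuclear receptor, had shares of 76.0, 73.1 and 68.4% in mutants and 88.0, 86.8 and 86.7% in wild type. That of dgkaa, a diacylglycerol kinase, had 55.1, 60.2 and 55.5% in mutants and 73.3, 74.1 and 75.7% in wild type. That of grasp, a scaffold protein gene, had 60.9, 54.3 and 56.6% in mutants and 86.1, 78.2 and 75.2% in wild type. For letmd1 the genotypes overlapped. For cd63, the highest of the 6, the primary copy was at 0 throughout, so its ratio and its part in the contig sum follow the ALT model alone.

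**Figure D4:**
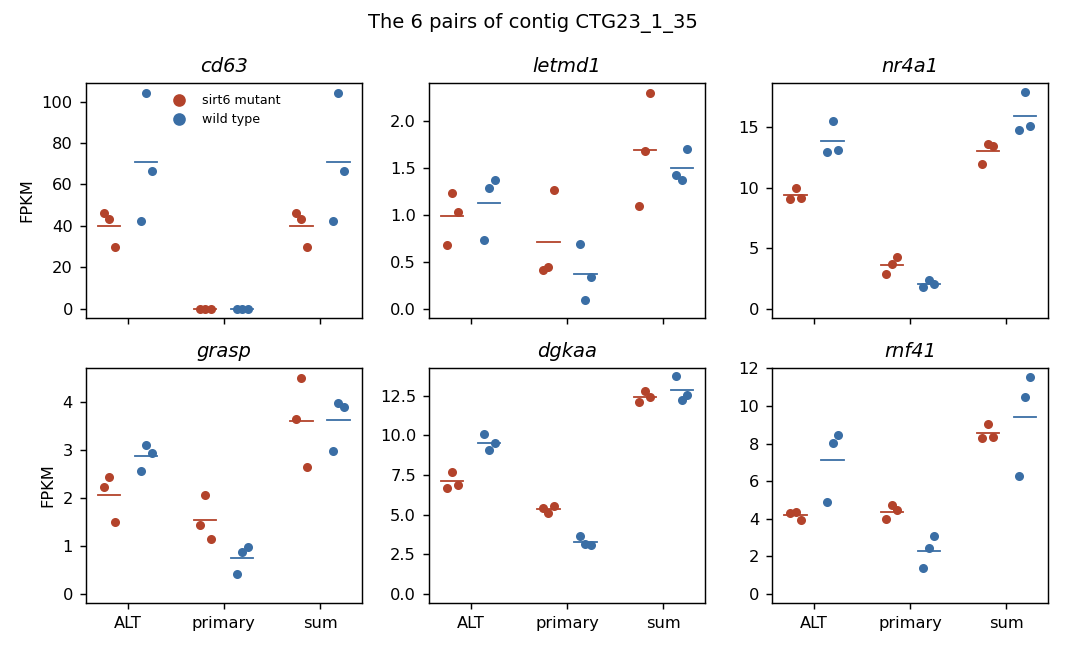
FPKM (y axis, from 0) of the ALT model, the primary model and their sum for the 6 pairs of contig CHR_ALT_CTG23_1_35, in order along the contig, with mutants left of wild type. In nr4a1, grasp, dgkaa and rnf41 the ALT model is lower and the primary model higher in every mutant library than in every wild-type library, while the sums of grasp, dgkaa and rnf41 overlap.

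On CHR_ALT_CTG1_1_1, actb1 sets the sum, which had a share of 54.0 ± 0.112% in mutants and 34.4 ± 0.953% in wild type (SD, n = 3 each). Of its other 4 pairs, fscn1b, an actin-bundling protein gene, had a share of 40.4 ± 12.4% in mutants and 20.2 ± 4.63% in wild type (adjusted p of 0.252), and abcg2b, fbxl18 and grin2ab had ratio differences of -0.23, -0.02 and -0.02 on the log2 scale. The adjacent actb1 and fscn1b thus lay in the same direction, and the other 3 differed by less than their standard errors. On CHR_ALT_CTG2_1_3, with psmb5, 12 of 16 pairs had a higher ALT side in mutants and 4 a lower one.

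On CHR_ALT_CTG5_1_15 all 6 pairs and on CHR_ALT_CTG4_1_6 all 4 had a higher ALT side in mutants, with summed shares of 20.6 ± 2.23% in mutants and 12.1 ± 0.653% in wild type for the contig on chromosome 5, and 45.04 ± 1.73% in mutants and 33.7 ± 1.59% in wild type for that on chromosome 4. Members of the contig on chromosome 5 were tia1l, dgcr8, a partner of Drosha in microRNA processing, with 21.3 ± 2.2% in mutants and 13.3 ± 0.713% in wild type, and the proton pump subunit gene atp6v0a2b, with 19.5 ± 1.71% in mutants and 11.7 ± 0.783% in wild type (SD, n = 3 each). On chromosome 4 they were gdi2, a regulator of Rab GTPases, with 42.8 ± 2.37% in mutants and 31.6 ± 2.31% in wild type, the guidance cue gene sema3aa, the presynaptic scaffold gene pcloa and ankrd16. On CHR_ALT_CTG5_1_34, 7 of 8 pairs had a higher ALT side in mutants, among them h3f3c, crx and hnrnpl, and tppp2 a lower one, with 12.2 ± 1.29% in mutants and 20.1 ± 3.41% in wild type. The log2 ratio of this contig differed by 0.68 (adjusted p of 0.0336 in limma). With only pairs that overlap in coordinates, which leaves out h3f3c, it differed by 0.17 (adjusted p of 0.469 in limma). The log2 ratio of CHR_ALT_CTG5_1_15 differed by 0.88 (adjusted p of 0.0336 in limma). With only overlapping pairs, which leaves out tia1l, it differed by 0.59 (adjusted p of 0.225 in limma). The tia1l copies start 14814 bases apart, so a neighbouring gene cannot be told apart from a second copy.

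Over all contigs, 44 held 2 or more pairs with an unadjusted p under 0.05, and in 31 of these all such pairs lay in 1 direction. Taking such pairs alone in order along a contig, 52 of 69 consecutive couples (75.4%) lay in the same direction. Other tested pairs can lie between the members of these couples. Of all neighbouring tested couples, 786 of 1349 (58.3%) lay in the same direction, so the 2 shares are not of the same kind of couple. Neighbouring pairs share a contig and are not independent.

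Single copies and summed loci were then set side by side. Both models were tested, with no other ALT model matched, in 1244 pairs. ALT models were also added to their primary copy, after which 0 of 22306 entries passed in limma (0%), with 1186 (5.32%) under 0.05 before adjustment. In the 1244 pairs, an unadjusted p under 0.05 was found for 117 ALT models (9.41%), 85 primary models (6.83%) and 57 summed loci (4.58%). Of the 85 primary models, 24 kept an unadjusted p under 0.05 as a summed locus, and 7 changed sign. In 39 of the 85 the ALT model lay in the opposite direction, against 593 of all 1244 pairs (47.7%). These 85 were chosen by the primary model's own p, so a loss in the sum also follows from that choice. Only 11 pairs had an unadjusted p under 0.05 in both copies, and 6 of these were in opposite directions.

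The forms this took are shown by nr4a1, and by egr1 and myb, which were named after their values were seen. The primary model of nr4a1 had 2.9, 3.7 and 4.2 FPKM in mutants and 1.8, 2.4 and 2.0 FPKM in wild type, an unadjusted p of 0.00808 for a higher level in mutants. Its summed locus had 12.997 ± 0.888 FPKM in mutants and 15.9 ± 1.72 FPKM in wild type, a log2 difference of -0.28 with an unadjusted p of 0.0754. The primary model of egr1, an immediate-early zinc finger factor, had 10.1, 9.95 and 10.3 FPKM in mutants and 7.26, 5.64 and 5.40 FPKM in wild type (log2 difference of 0.70). Its ALT model had 8.38, 7.33 and 6.94 FPKM in mutants and 8.17, 7.68 and 7.97 FPKM in wild type, and the locus a log2 difference of 0.32 with an unadjusted p of 0.0334. The egr1 models do not overlap and start 4507 bases apart, so a neighbouring gene cannot be told apart from a second copy. For myb, a regulator of blood stem cells, both copies were higher in mutants: the ALT model with 3.06, 2.43 and 3.94 FPKM in mutants and 1.09, 1.06 and 1.68 FPKM in wild type, and the primary model with 3.88, 6.04 and 3.095 FPKM in mutants and 1.42, 2.33 and 2.55 FPKM in wild type. The summed myb locus differed by 1.06 on the log2 scale, with an unadjusted p of 0.000731 and an adjusted p of 0.431.

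**Figure D5:**
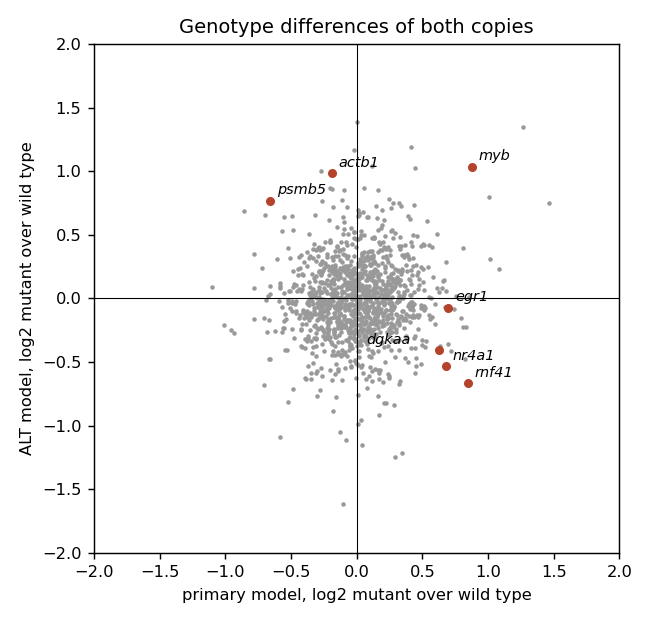
Log2 difference, mutant over wild type, of the ALT model (y axis) against that of the primary model (x axis) for the 1244 pairs with both models tested, each point a pair. The 7 labelled pairs include rnf41, nr4a1 and dgkaa, with the ALT model lower and the primary model higher in mutants, psmb5 with the reverse, and myb with both higher; none of the models passed an adjusted p of 0.05.

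Over all tested pairs together, the ALT copies held 55.9, 54.7 and 54.3% of the summed FPKM in mutants and 59.3, 55.6 and 56.2% in wild type. The difference of the means was -2.05 points, mutant minus wild type, with an exact two-sided permutation p of 0.2, where 0.1 is the smallest possible. It was -0.90 without wild-type library 1, -0.61 without the 5 pairs of highest level and -0.74 as a difference of the medians over pairs. The genotypes overlapped, since mutant library 1 lay above wild-type library 2.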

How the data were processed

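RNA was sequenced from 3 sirt6 mutant and 3 wild-type libraries. The submitters' processing notes list GRCz11 as the build and, with no roles, featureCounts, HISAT2 2.0.5, DESeq2 and FastQC. The authors deposited FPKM values with gene position, length and a protein description. The sources used here do not state the annotation, the origin of the models without a symbol, the strand setting or the treatment of multiply mapping reads, so overlapping and antisense models cannot be told apart. Multiplying by length gave whole reads in every library for 100% of values, within a tolerance of 1e-06. The size value implied by the FPKM was 1.04, 0.952 and 1.06 times the reads in genes in mutants 1 to 3. In wild-type libraries 1 to 3 it was 0.955, 1.02 and 1.03 times. The sources used here do not state how it was set.

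The planned join by symbol was not possible, and the join by protein and position was chosen after the table was seen. Members, lists and alternatives were chosen with earlier results of these data known. Genotypes were tested with limma 3.58.1 (R 4.3.3). Values were log2(FPKM + 0.5), or the difference of these between copies, for models or summed pairs with a mean of at least 0.5 FPKM, a variance trend on level, and two-sided p-values adjusted by the Benjamini-Hochberg method over each whole table at 0.05. The 0.5 understates differences of low models. Single values used exact permutation tests (scipy 1.17.1). The fits were tested on simulated data.

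Named were the 10 ALT models of highest level and the 6 of smallest p each way. Among pairs with a mean of at least 2 FPKM and 20 reads, those named were the 8 of highest, lowest and most variable share, the 6 of smallest ratio p each way without overlap first, the members of the 6 contigs of smallest p, and up to 4 per family list. Ties at 100% were broken by identifier. Sequences are not shown here.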

Additional observations from a re-analysis of the deposited data

How the results depend on the processing

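The 3 pairs called for the copy ratio became 1 at a pseudocount of 0.1 FPKM or with recovered reads, 0 without a variance trend, and, added after the data were seen, 11 with reads weighted by counting error. Leaving out 1 library in turn gave 0 to 12: 0 without mutant library 1, 2 or 3, 1 without wild-type library 2 or 3, and 12 without wild-type library 1. The 6 contigs became 1 without a variance trend, 0 with pairs that overlap in coordinates, and 17 with counting-error weights, both added later, and 1 to 17 on leaving out 1 library, with 1, 1 and 2 without mutant library 1, 2 or 3, 1 without wild-type library 2 or 3, and 17 without wild-type library 1. Requiring overlap or starts within 20000 bases removes actb1 from the table by construction. The direction did not change in any of 493 alternatives of 30 named pairs, models and contigs, of which 68 lost and 18 gained a call. These 30 were chosen as those of smallest p, so a kept direction also follows from that choice. The log2 ratio of actb1 stayed between 1.14 and 1.19 and passed in 11 of 16 alternatives, and psmb5 and rnf41 passed in 8 of 18 each.

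The 0 calls of the gene fit and of the summed table became 2 each with a mean of at least 5 FPKM or with quantile normalization. Requiring 5 FPKM also left fewer pairs, with 421 called for a higher ALT and 346 for a higher primary copy. Leaving out mutant library 2 and wild-type library 1 together, chosen after seeing that the other libraries form close couples, which narrows the spread by construction, gave 4429 genes, 428 ALT models, 4386 entries of the summed table, 6 pairs and 16 contigs.

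With the replicate number as a replicate block, 0 pairs and 1 contig were called. Deviations of same-numbered libraries correlated at 0.05, 0.01 and 0.11, so the numbers were not taken to pair the libraries. The difference of the ALT share of FPKM kept its sign but ran from -2.78 points without wild-type library 2 to -0.61 without the 5 pairs of highest level, and that of reads in genes from -0.24 without wild-type library 1 to -0.016 without the 5 models of highest level. A median over models was not run for the share of reads, and copies on any chromosome were matched in place of the planned restriction to the same chromosome.

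Counting error limits the shares of thinly read pairs, such as wnt3 on 14 to 34 reads a library.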
